A study of Homo sapiens with 4 samples.

Results

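The TEAD transcription factors and the cofactors that bind them were measured as RNA in a mesenchymal-like human breast cancer line, MDA-MB-231, after 24 h with MGH-CP1 or vehicle control. The members were set by name: the 4 TEAD paralogs TEAD1, TEAD2, TEAD3 and TEAD4, the coactivators YAP1 (YAP) and WWTR1 (TAZ), and the vestigial-like cofactors VGLL3 and VGLL4. These are 8 genes of the 48162 in the deposited table, and each symbol matched 1 row. MGH-CP1 is a small molecule that occupies the lipid pocket of TEAD and blocks its autopalmitoylation. The sample labels give its dose as 10 µM, while the methods print the unit as mM. Each condition had 2 libraries of poly-T selected RNA from this single line, without genetic change. No source used here says that replicates came from separate cultures, so p-values measure the spread between these libraries, which may be technical.

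TEAD proteins bind DNA through the TEA domain but have little activating power of their own, and the cofactor that sits on them sets the output. YAP and TAZ, released when the Hippo kinases are quiet, enter the nucleus and turn TEAD into an activator of growth and matrix genes. Vestigial-like proteins bind an overlapping surface of TEAD, so they compete with YAP and TAZ. VGLL4 is best known as a repressor of TEAD–YAP output, whereas VGLL3 can act as an activator with its own set of genes. In cells with several TEAD paralogs and cofactors, their relative amounts therefore bear on which complexes can form, although RNA levels do not give protein levels or binding.

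TEADs read the DNA word CATTCC, or GGAATG on the other strand. It was searched on both strands in the window from 250 bases before to 50 bases after each RefSeq start site (GRCh38.p14). Of 35116 such windows, 14.0% held the word at least once. For 6 of the 8 genes the table had 12 start sites in all, and 1 of these 12 windows held it, that of YAP1, with its first base 162 bases before the start site. TEAD1 and TEAD4 had no entry. The windows of YAP1, of WWTR1 (the second of its 2 start sites in the table) and of VGLL3 are shown because YAP1 holds the only match and the other 2 genes are the cofactors whose RNA differed most between conditions. Capitals mark the TEAD word. They lie at chr11:102110197-102110496 on the plus strand, chr3:149657976-149658275 on the minus strand and chr3:86991100-86991399 on the minus strand.
YAP1: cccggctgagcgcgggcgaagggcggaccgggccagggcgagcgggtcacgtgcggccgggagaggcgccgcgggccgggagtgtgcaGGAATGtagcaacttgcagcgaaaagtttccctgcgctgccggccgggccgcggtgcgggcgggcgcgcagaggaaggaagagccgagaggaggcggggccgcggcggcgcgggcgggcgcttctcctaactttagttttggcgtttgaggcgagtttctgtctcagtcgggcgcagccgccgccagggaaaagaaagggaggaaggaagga
WWTR1: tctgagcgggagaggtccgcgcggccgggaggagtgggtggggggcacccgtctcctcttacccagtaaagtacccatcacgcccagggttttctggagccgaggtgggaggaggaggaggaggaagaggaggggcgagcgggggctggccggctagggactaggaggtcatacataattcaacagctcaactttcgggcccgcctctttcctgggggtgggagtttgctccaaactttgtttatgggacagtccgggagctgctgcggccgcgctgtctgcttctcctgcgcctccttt
VGLL3: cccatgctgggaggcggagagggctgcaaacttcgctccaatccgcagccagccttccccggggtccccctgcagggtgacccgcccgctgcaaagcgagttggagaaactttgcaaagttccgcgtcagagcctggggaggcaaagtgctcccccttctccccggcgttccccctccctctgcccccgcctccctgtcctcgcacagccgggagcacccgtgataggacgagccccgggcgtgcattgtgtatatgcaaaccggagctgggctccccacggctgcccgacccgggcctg
A match is a description of these windows and not a bound site, and the other windows lack only these letters.

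Values are FPKM, fragments scaled to the listed gene length and to the fragments on all listed genes, so levels of different genes can be set side by side per length. The libraries held 25455533 and 25508824 fragments on genes in vehicle control cells and 17997221 and 17577930 after MGH-CP1. Mitochondrial genes took 0.447% and 0.418% of these fragments in vehicle control cells and 1.57% and 1.53% after MGH-CP1, and the part of this and of the lower depth in the results below was not tested. Of 5 markers of a mesenchymal-like line, VIM, CD44, CAV1 and AXL had at least 149 FPKM in every library and ZEB1 had 15.4 to 17.0. After MGH-CP1, CAV1 (log2 fold change -0.49, adjusted p = 1.00e-04 from limma) and AXL (-0.76, adjusted p = 4.25e-04 from limma) fell. VIM (-0.07), CD44 (0.12) and ZEB1 (-0.07) were not called. ESR1 and PGR, which mark luminal cells, had at most 4 fragments. Of the other luminal or epithelial markers, CDH1 reached 0.638 FPKM, EPCAM lay between 12.4 and 16.4 and GATA3 between 4.17 and 5.65. The leukocyte gene CD3E and the endothelial gene CDH5 had 0 fragments in every library, and PTPRC and ITGAM had at most 5. Of the fibroblast genes, DCN had at most 2 fragments and LUM at most 22, whereas COL1A2 rose from 3.23 ± 0.218 to 4.55 ± 0.00376 FPKM (SD, n = 2 each) after MGH-CP1 (log2 fold change 0.39, adjusted p = 0.00680 from limma). COL1A1 (0.24) and PDGFRB (0.18), at 1.24 to 1.83 FPKM, were not called, and the part of these markers in the results was not tested.

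In vehicle control cells YAP1 was the most abundant of the 8 RNAs per length and TEAD1 the most abundant TEAD. YAP1 had 49.999 and 52.0 FPKM in the vehicle control libraries (51.0 ± 1.40, SD, n = 2). TEAD1 followed with 45.4 and 43.8 FPKM (44.6 ± 1.13, SD, n = 2). Their order depends on the listed lengths. In fragments, not divided by length, TEAD1 led with 10908 and 10548 against 6855 and 7142 for YAP1. WWTR1 had 29.1 and 29.2 FPKM, and TEAD3 had 27.9 and 29.0. These last 2 genes were neighbours in the order whose difference of 0.684 FPKM did not exceed 2 pooled SDs of 0.553. TEAD4 came next at 20.1 and 17.5 FPKM. TEAD2 with 9.29 and 7.42 FPKM and VGLL4 with 7.61 and 8.37 FPKM overlapped, so their order is not resolved. VGLL3 stood far below, at 1.09 and 0.988 FPKM, 7.70 times lower than VGLL4 in the means. In fragments, not divided by length, the gap was smaller, with 288 and 262 for VGLL3 against 722 and 795 for VGLL4. Averaged over the libraries, 12080 genes reached 1 FPKM, and of these 10.9% exceeded YAP1 in vehicle control cells and 12.7% exceeded TEAD1, against 55.6% for TEAD2 and 96.8% for VGLL3. YAP1 and TEAD1 thus lay among the better expressed of these genes. VGLL3 itself averaged 0.847 FPKM over the 4 libraries and is not among them. Its low place was therefore set by the cut at 1 FPKM, while 24878 genes had some signal.

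**Figure D1:**
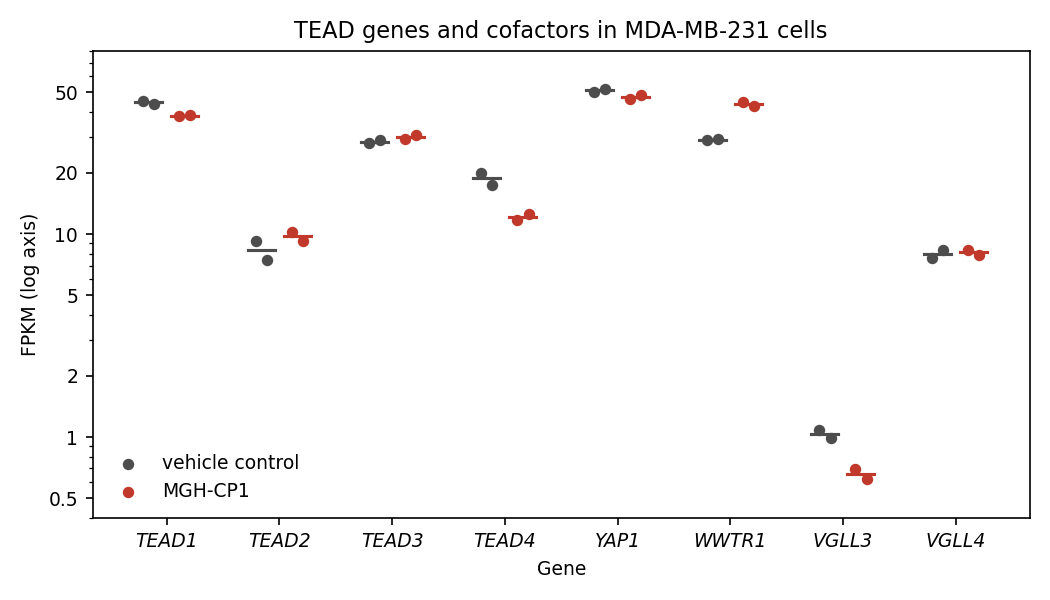
FPKM on a log axis of the 8 genes, with a point per library and a line at the mean of the 2 libraries of each condition (grey, vehicle control; red, MGH-CP1). The mean of WWTR1 is 29.2 and then 43.7 FPKM, that of TEAD4 18.8 and then 12.1 and that of VGLL3 1.04 and then 0.656, while the points of TEAD2 and of VGLL4 overlap between conditions.

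After MGH-CP1, WWTR1 rose and TEAD4 and TEAD1 fell, while YAP1, TEAD2, TEAD3 and VGLL4 did not pass the test. VGLL3 was not tested with the others, because its mean of 0.847 FPKM over the 4 libraries lies under the filter. The test was limma on log2(FPKM + 1) over the 12080 genes, two-sided, with Benjamini-Hochberg adjustment and a threshold of 0.05. In bulk RNA, fewer cells that express a gene and less RNA per cell cannot be told apart. Of the 7 members tested, 1 was called higher and 2 lower, where 27.1% of all genes tested were called higher and 23.8% lower, or 50.8% in either direction. A count of 3 calls among 7 is near that background. In 2 of the 7, both MGH-CP1 libraries lay above both vehicle control libraries, and in 3 they lay below, against 39.8% and 37.4% of all genes tested. Over all genes tested the median log2 fold change was 0.014. An exact permutation test of a single gene cannot go below p = 0.333 with 2 libraries against 2. When no variance was shared between genes, none of the 7 members was called.

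TEAD4, the paralog best known from the trophectoderm and from several carcinomas, had 11.8 and 12.5 FPKM after MGH-CP1 against 20.1 and 17.5 in vehicle control cells. Both treated libraries were below both controls. The mean fell by 35.4%, and the log2 fold change was -0.59 (standard error 0.08, 95% confidence interval -0.77 to -0.41, adjusted p = 5.01e-04 from limma). Only 3.97% of all genes tested had a lower log2 fold change. It rested on 358 to 864 fragments per library. Leaving out single libraries kept the value between -0.68 and -0.49, and the adjusted p without shared variance in limma was 0.0954.

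TEAD1, the most widely expressed paralog, had 38.1 and 38.5 FPKM after MGH-CP1 and 45.4 and 43.8 FPKM in vehicle control cells. The groups did not overlap, but the change was small. The mean fell by 14.2%, with a log2 fold change of -0.22 (standard error 0.05, 95% confidence interval -0.33 to -0.10, adjusted p = 0.00763 from limma). Of the genes tested, 51.3% had a larger absolute log2 fold change. The adjusted p without shared variance in limma was 0.0743. TEAD1 RNA was counted deeply, with 6382 to 10908 fragments per library.

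TEAD3, a paralog with high expression in placenta, had 27.9 and 29.0 FPKM in vehicle control cells and 29.3 and 30.7 after MGH-CP1. The treated libraries lay just above the controls, and the log2 fold change of 0.07 was not called (95% confidence interval -0.05 to 0.20, adjusted p = 0.294 from limma). It was between 0.041, without MGH-CP1 replicate 2, and 0.11, without MGH-CP1 replicate 1, and was 0.046 without vehicle control replicate 1. TEAD2, a paralog of early embryos, had 9.29 and 7.42 FPKM in vehicle control cells and 10.2 and 9.21 after MGH-CP1. Its groups overlapped, since vehicle control replicate 1 lay between the treated libraries. The log2 fold change was 0.20 (95% confidence interval -0.04 to 0.44, adjusted p = 0.136 from limma). This value depended on the control libraries: without vehicle control replicate 1 it was 0.35 and called (adjusted p = 0.0165 from limma), and without vehicle control replicate 2 it was 0.06 (adjusted p = 0.652 from limma).

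Among the coactivators, WWTR1 had the lowest adjusted p of the 7 members tested. TAZ, its protein, resembles YAP in its WW domain and TEAD-binding region and is partly redundant with it. WWTR1 had 29.1 and 29.2 FPKM in the vehicle control libraries and 44.6 and 42.9 FPKM after MGH-CP1, a gap much larger than that between replicates. The means differed 1.499-fold, and the log2 fold change was 0.57 (standard error 0.05, 95% confidence interval 0.45 to 0.68, adjusted p = 9.08e-05 from limma). Of all genes tested, 8.44% rose more. The fragment numbers were close in the 4 libraries, 3728 and 3752 in the controls and 4034 and 3795 after treatment, while the treated libraries held fewer fragments in all. With each library left out, the log2 fold change stayed between 0.54 and 0.59, and without shared variance the adjusted p in limma was 0.0590.

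YAP1, the better known of the pair, differed little. It had 49.999 and 52.0 FPKM in vehicle control cells and 46.5 and 48.3 after MGH-CP1, so that the treated libraries lay below the controls by little. The log2 fold change of -0.10 was not called (95% confidence interval -0.22 to 0.01, adjusted p = 0.123 from limma). This interval does not overlap that of WWTR1, and the ratio of both genes is compared below.

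**Figure D2:**
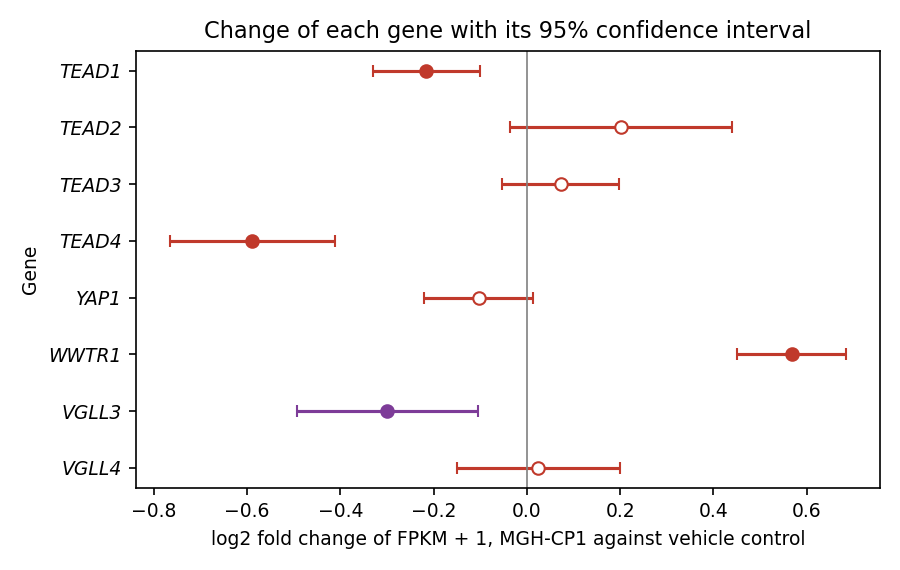
Log2 fold change of FPKM + 1 after MGH-CP1 against vehicle control for the 8 genes, with 95% confidence intervals from limma, where filled points have an adjusted p under 0.05 and open points do not. VGLL3 (purple) comes from the fit to genes with a mean of at least 50 recovered fragments, chosen after its values were seen. Its call was lost with no filter (adjusted p = 0.106 from limma). The scale of FPKM + 1 understates its change, which was -0.66 with limma voom. The interval of WWTR1 (0.45 to 0.68) lies wholly above that of YAP1 (-0.22 to 0.01).

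Of the vestigial-like cofactors, VGLL3 was lower after MGH-CP1 and VGLL4 was at a similar level. VGLL3 had 1.09 and 0.988 FPKM in vehicle control cells and 0.695 and 0.618 after MGH-CP1, and both treated libraries were below both controls. The ratio of the means was 0.632. Although the FPKM were low, the listed length of 10400 bases gave 288 and 262 fragments in the controls and 130 and 113 after treatment. The exact Poisson intervals (95%) of the library values, which cover counting error only, ran from 0.872 FPKM at the lowest in the controls to 0.825 at the highest after treatment, and did not overlap. In a fit to the 11888 genes with a mean of at least 50 recovered fragments, chosen after its values were seen, the log2 fold change of VGLL3 was -0.30 on the log2(FPKM + 1) scale (standard error 0.09, adjusted p = 0.0148 from limma), where 25.4% of genes were called lower. With limma voom on the same fragments, which adds no FPKM pseudocount, it was -0.66 (standard error 0.16, adjusted p = 4.85e-04 from limma), where 26.7% were called lower. The call was lost without vehicle control replicate 1 (-0.26, adjusted p = 0.107 from limma) and without MGH-CP1 replicate 2 (-0.27, adjusted p = 0.0579 from limma) in the first of these fits, and with no filter at all (adjusted p = 0.106 from limma), while the direction was the same in each.

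VGLL4 had 7.61 and 8.37 FPKM in vehicle control cells and 8.38 and 7.90 FPKM after MGH-CP1. The groups overlapped, the log2 fold change was 0.02 (95% confidence interval -0.15 to 0.20, adjusted p = 0.807 from limma), and 93.9% of the genes tested had a larger absolute change. Its value passes through 0 with quantile normalization (-0.01), without vehicle control replicate 1 (-0.04) and without MGH-CP1 replicate 1 (-0.01). The end of VGLL4 shares 1596 bases with ATG7 on the opposite strand, and no source used here says whether strand was used in counting. ATG7, an enzyme of autophagy, held 445 to 631 fragments per library, 81.2% of the number on VGLL4 over the 4 libraries, so part of the VGLL4 value could not be assigned with certainty.

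The remaining overlaps were small. TEAD2 shares bases with CD37, DKKL1 and AC010524.4 on the opposite strand and with CTC-301O7.4 on its own strand, and the largest of these, CD37, held 14 to 19 fragments per library, 3.45% of those on TEAD2. WWTR1-AS1 had at most 5 fragments and WWTR1-IT1 at most 1. RP11-47J17.2, RP11-47J17.3 and RP11-47J17.1 within TEAD1, RP11-864G5.3 within YAP1 and AC090939.1 at VGLL4 had at most 2 fragments. TEAD3, TEAD4 and VGLL3 had no overlapping gene in the table. In the coordinates of the deposited table, for which the submitters' processing notes name hg19, TEAD4 lies on the plus strand at chr12:3068496-3149839, WWTR1 on the minus strand at chr3:149235022-149454501 and VGLL3 on the minus strand at chr3:86987119-87040269.

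Within the TEAD family, TEAD4 held a smaller share after MGH-CP1 and TEAD3 and TEAD2 larger ones, in both treated libraries. Per length, TEAD1 made up 44.2% and 44.8% of the summed TEAD FPKM in vehicle control cells and 42.6% and 42.3% after MGH-CP1, so it led in every library. TEAD3 took 27.2% and 29.7% with vehicle control and 32.8% and 33.8% with MGH-CP1. TEAD4 took 19.5% and 17.9% of the sum in the controls and 13.2% and 13.8% after treatment. For TEAD2 the shares were 9.04% and 7.59% against 11.5% and 10.1%. The groups did not overlap for any of the 4 paralogs, and in FPKM they did not overlap for 77.2% of all genes tested. Shares of a common sum depend on each other, so these are not 4 separate shifts. In FPKM, TEAD2 overlapped between conditions and TEAD3 was not called. The mean shares differed by -5.26 percentage points for TEAD4, -2.06 for TEAD1, 4.84 for TEAD3 and 2.48 for TEAD2. The TEAD4 to TEAD2 ratio was 2.16 and 2.36 in the controls and 1.15 and 1.36 after MGH-CP1, the largest log2 difference (-0.85) among the pairs of TEAD genes compared. Over all 4 paralogs the summed level was 100.3 ± 3.49 FPKM (SD, n = 2) in vehicle control cells and 90.2 ± 1.05 FPKM (SD, n = 2) after MGH-CP1, a ratio of 0.899. Without division by length, TEAD1, whose listed length is 9430 bases against 1690 for TEAD4, held 75.4% of the TEAD fragments in the controls and 73.0% after treatment, and TEAD4 held 5.69% and 4.15%.

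**Figure D3:**
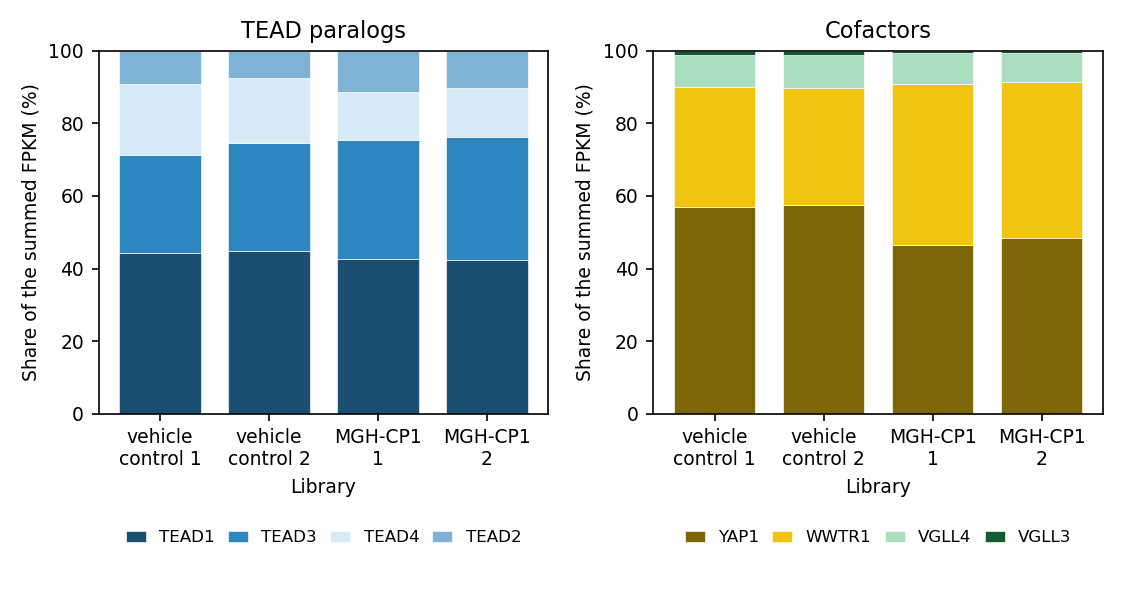
Share of the summed FPKM of the 4 TEAD genes (left) and of the 4 cofactors (right) in each library, in percent, stacked to 100. The TEAD4 band spans 19.5% and 17.9% with vehicle control, then 13.2% and 13.8%, and the WWTR1 band 33.2% and 32.3% and then 44.5% and 43.0%.

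Among the cofactors, YAP1 and WWTR1 came close to equal amounts after MGH-CP1. YAP1 made up 63.2% and 64.0% of the summed YAP1 and WWTR1 FPKM in vehicle control cells and 51.1% and 52.9% after MGH-CP1, a difference of -11.6 percentage points. There were 0.582 and 0.563 WWTR1 per YAP1 in the controls and 0.958 and 0.889 after treatment, so YAP1 still led in every library but only narrowly with MGH-CP1. The difference of the log2 ratio of WWTR1 to YAP1 was 0.69 (SD 0.04 in the controls and 0.08 after MGH-CP1). VGLL3 was 1.24% and 1.09% of the 4 cofactors in vehicle control cells and 0.693% and 0.620% after treatment, and VGLL4 8.67% and 9.24% against 8.37% and 7.92%. Per length, there were 6.999 and 8.47 VGLL4 for each VGLL3 in the controls and 12.1 and 12.8 after MGH-CP1. The size of this ratio depends on the listed lengths. In fragments, not divided by length, VGLL3 held 2.34% and VGLL4 6.44% of the 4 cofactors in the controls. After treatment these fragment shares were 1.33% and 5.92%. Relative to YAP1 and WWTR1 together, the log2 ratio of VGLL3 differed by -0.85 and that of VGLL4 by -0.16.

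Taking both sides, the ratio of TEAD RNA to that of YAP1 and WWTR1 was lower after MGH-CP1. The ratio of the summed TEAD FPKM to the summed YAP1 and WWTR1 FPKM was 1.30 and 1.204 in the controls and 0.982 and 0.997 after treatment. In fragments, not divided by length, it was 1.37 and 1.28 in the controls and 1.04 and 1.05 after treatment, so which sum is larger after MGH-CP1 depends on the scale. YAP1 and WWTR1 together had 80.2 ± 1.49 FPKM (SD, n = 2) with vehicle control and 91.1 ± 0.0658 FPKM (SD, n = 2) with MGH-CP1, while VGLL3 and VGLL4 together had 9.03 ± 0.461 (SD, n = 2) and 8.80 ± 0.399 FPKM (SD, n = 2). Over the 12 ratios and 10 shares compared, the exact permutation test (two-sided) gave p = 0.333, the smallest possible, for all but the ratio of TEAD3 to TEAD2, whose groups overlapped (p = 0.667). Benjamini-Hochberg adjusted values were 0.364 for the 11 other ratios and 0.333 for the shares. The exact test cannot pass 0.05 with 2 libraries a condition, so it does not bear on these shifts, and they are given as values. After treatment WWTR1 stood above TEAD1 in FPKM, 5.43 FPKM apart and a pooled SD of 0.842. Their order depends on the listed lengths. In fragments, not divided by length, TEAD1 led after MGH-CP1 with 6469 and 6382 against 4034 and 3795 for WWTR1. All 7 pairs of neighbours in FPKM then differed by more than 2 pooled SDs. With 2 libraries a condition the SDs are poorly known, so this does not settle the order.

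By the distance between the 4 centred values of log2(FPKM + 1), the genes whose pattern over the 4 libraries lay closest to that of TEAD4, the tested member with the largest absolute change, were HYLS1 (distance 0.0168), SRPRB (0.0214), CCDC138 (0.0250), SMC6 (0.0254) and DNAJC9 (0.0274). HYLS1 is a centriole protein, SRPRB a subunit of the receptor of the signal recognition particle, SMC6 a part of a complex that keeps chromosomes intact and DNAJC9 a histone chaperone. Their log2 fold changes ran from -0.60 to -0.57, close to that of TEAD4 because the genes were picked for a like pattern. All 5 likenesses rest on 4 libraries in 2 conditions.

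The other cofactors that can bind TEAD were low or moved little. VGLL1 and VGLL2, the remaining vestigial-like genes, and FAM181A and FAM181B, which carry a TEAD-binding motif, had 0 fragments in every library. A count of 0 allows up to 3 fragments, or at most 0.140 FPKM for VGLL1 and 0.0772 for VGLL2 in the shallowest library. VGLL3 and VGLL4 were therefore the only vestigial-like RNAs detected at this depth. Of the steroid receptor coactivators, NCOA3 rose from 11.1 ± 0.439 to 13.002 ± 0.0264 FPKM (SD, n = 2 each), with a log2 fold change of 0.21 (adjusted p = 0.0255 from limma). NCOA1 (-0.18) and NCOA2 (0.0096) were not called. The NCOA3 call was lost without vehicle control replicate 2 and without either MGH-CP1 library.

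**Figure D4:**
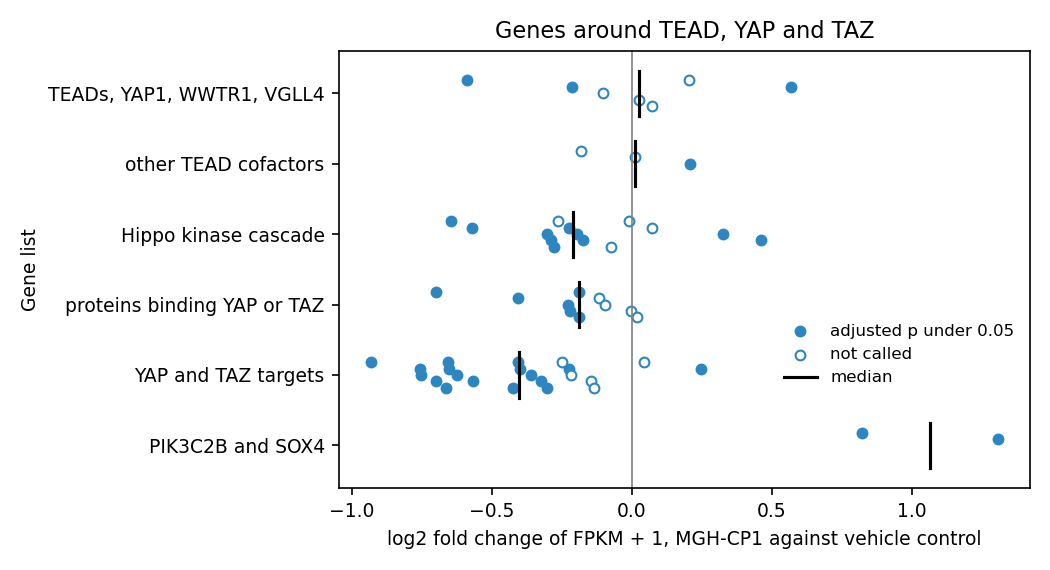
Log2 fold change of FPKM + 1 after MGH-CP1 against vehicle control for each tested gene of 6 lists, where filled points have an adjusted p under 0.05 from limma, open points do not, and black lines are medians. The TEAD and cofactor genes scatter on both sides of 0 (median 0.02), while YAP and TAZ targets lie mostly below it (median -0.41).

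Around these 8 genes, the Hippo cascade that restrains YAP and TAZ had more genes called lower than higher. Of 14 genes of the kinases and their scaffolds, all tested, 8 fell and 2 rose (median log2 fold change -0.21, against 0.014 for all genes tested), where 23.8% of all genes tested were called lower and 27.1% higher. FRMD6, a membrane-linked upstream activator, fell by 0.65 on the log2 scale (adjusted p = 6.50e-05 from limma), WWC1 (KIBRA) by 0.57 and the kinase LATS2 by 0.30. The kinases TAOK2 (0.46) and MAP4K4 (0.33) rose. With vehicle control replicate 1, MGH-CP1 replicate 1 or MGH-CP1 replicate 2 left out, 4 of the 14 were called lower. Of 11 genes for proteins that bind or retain YAP and TAZ in the cytoplasm or at junctions, 10 were tested, 6 fell and 0 rose, with a median of -0.19, so that 60% were called in either direction, against 50.8% of all genes tested. The largest falls there were those of AMOTL2 (-0.70), the phosphatase PTPN14 (-0.41) and the 14-3-3 gene YWHAH (-0.23). AMOT, a founding angiomotin, had at most 4 fragments per library. AMOTL2, LATS2 and PTPN14 are also YAP and TAZ targets and stand in both kinds of list.

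Among 22 YAP and TAZ target genes, all tested, 16 fell and 1 rose (median log2 fold change -0.41), against 23.8% called lower and 27.1% called higher of all genes tested. FJX1 (-0.93), the receptor kinase AXL (-0.76) and CYR61 (-0.75), a matrix protein, had the largest falls. ARHGEF17 was the target that rose (0.25), a call lost without vehicle control replicate 2 and without MGH-CP1 replicate 2. The genes that the study ties to VGLL3, SOX4 (log2 fold change 1.31) and PIK3C2B (0.82), were both higher after MGH-CP1 in the same libraries in which VGLL3 RNA was lower. The study chose these genes partly on these samples, so their rise is not independent of that choice. Its link to VGLL3 rests on other experiments. Overexpressed VGLL3 raised both genes, and silencing it lowered them, also in this line, and removed their rise with MGH-CP1 in other cells. The paper proposes that TEAD may turn to other cofactors once YAP is blocked. No relation between VGLL3 and these genes was tested here.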

How the data were processed

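RNA of 2 vehicle control and 2 MGH-CP1 libraries, grouped by their titles, was analysed. FPKM values were deposited by the authors, computed from the listed gene length and the fragments on listed genes. The submitters' processing notes name CASAVA 1.8, STAR and hg19, and the counting tool is not given in the sources used here. FPKM multiplied by length was a whole multiple of 1 step per library for 100% of values (tolerance 0.001), which returned fragments. Replicates differed beyond counting noise (chi-square per gene of 4.89 and 3.43).

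Main fit: limma 3.58.1 in R 4.3.3 on log2(FPKM + 1), mean FPKM of at least 1, variance trend, Benjamini-Hochberg. On simulated data with 12061 genes tested, 64.6% of changes of 0.5 on the log2 scale and 94.8% of changes of 1 were recovered, with 6.59% false calls. There, 99 and 97 tested genes carried these changes and all genes had the same dispersion. In the data 50.8% of genes were called, so these rates need not hold for them. Fold changes on this scale understate those of low genes. Shares and ratios were compared by exact permutation of libraries. Members and lists were chosen with earlier results of these data known. Named genes were the members, the list genes with the largest called changes (at most 3 in each direction), the 5 genes nearest in pattern and all overlapping genes. NCOA1, NCOA2, AMOT, VGLL1, VGLL2, FAM181A, FAM181B and the marker genes were named as list members whatever their change. Promoter sequences came from RefSeq (GRCh38.p14).

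Alternatives were a smaller pseudocount, other filters, scaling by median ratios, quantile normalization, a term for the replicate number, limma with no variance trend or with no sharing of variance, voom on recovered fragments, fragments in place of FPKM for shares, and leaving out each library. The filter of at least 50 recovered fragments was added after the data were seen.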

Additional observations from a re-analysis of the deposited data

How the results depend on the processing

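The directions of TEAD1, TEAD2, TEAD3, TEAD4, YAP1 and WWTR1 held under every alternative run. VGLL4, near 0, was -0.011 with quantile normalization and between -0.036 and 0.085 with each library left out. The log2 ratio of TEAD3 to TEAD2 differed by -0.34 to 0.039 with each library left out. Without shared variance between genes, 9 genes were called higher and 4 lower, although 4947 had an unadjusted p under 0.05, and 0 genes of each list were called. TEAD1 (-0.22, adjusted p = 0.0743), TEAD4 (-0.59, adjusted p = 0.0954) and WWTR1 (0.57, adjusted p = 0.0590, all from limma) lost their calls there, where each gene has 2 degrees of freedom. With no filter on low values, 1844 genes were called lower over 24878 genes tested, with 3 of the Hippo cascade, 3 of the YAP and TAZ binding proteins, 0 targets higher and 0 other cofactors higher. With each library left out, TEAD2 ranged from 0.059 to 0.35, members called higher from 1 to 2, Hippo cascade genes called lower from 4 to 7, targets called higher from 0 to 1 and other cofactors called higher from 0 to 1. VGLL3 ranged from -0.33 to -0.26 in the fit with at least 50 recovered fragments, and was -0.66 with voom. With voom and with quantile normalization 1 other cofactor was called lower. Under a filter at a mean of 5 FPKM, 1 gene tied to VGLL3 was tested and called. The cause of these moves was not tested.

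The replicate numbers pair nothing by the labels, and the deviations of same-numbered libraries had a correlation of 0.0777 across genes. With the replicate number as a block, TEAD2 was called (0.20, adjusted p = 0.0433 from limma), which made 2 members higher, and 3466 genes were higher and 3052 lower. VGLL3 rested on 113 to 288 fragments per library, and VGLL1 and VGLL2, with 0, could be present below 0.140 FPKM.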
